A study of Macaca mulatta with 5 samples.

Results

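Oligodendrocyte precursors of the macaque claustrum were described across genes in single-nucleus RNA-seq of 2 healthy male rhesus macaques (*Macaca mulatta*). One animal was 18 months old and gave 3 libraries, and the other was 17 months old and gave 2. Nuclei came from frozen, surgically removed claustrum, a thin sheet of grey matter beneath the insular cortex, without treatment, and were captured with the 10x Genomics 3' V3 kit, which counts unique molecular identifiers (UMIs) per gene and nucleus. Each age is thus 1 animal, the libraries of an age are repeats on that animal, and p-values measure only the spread between libraries.

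Precursors were chosen by raw UMIs. A nucleus needed a total of 1500 to 12000 UMIs, at least 5 UMIs of PDGFRA, VCAN and CSPG4 together, at most 2 of GPR17, ENPP6 and BMPER (genes of committed precursors), at most 1 of GAD1, GAD2 and SLC17A7 (neurons), at most 2 of DOCK8, CSF1R and INPP5D (microglia) and at most 2 of COL1A2, DCN and FLT1 (vessels). The gate held 2258 of 40005 barcodes, with 515, 430 and 359 nuclei in 18-month libraries 1 to 3 and 529 and 425 in 17-month libraries 1 and 2. These were 10.2%, 6.47% and 8.67% of the nuclei with 1500 to 12000 UMIs in 18-month and 9.04% and 7.24% in 17-month libraries. The 15 genes of the gate were left out of every test that follows. Counts of a nucleus say how much RNA of a gene was captured. In sums over nuclei, fewer expressing nuclei and less RNA per nucleus cannot be told apart.

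Oligodendrocyte precursors, also called NG2 glia after the proteoglycan that CSPG4 encodes, are the dividing cells from which the myelin-forming oligodendrocytes of the brain arise. Platelet-derived growth factor acting on the receptor PDGFRA keeps them dividing, and loss of that signal together with the factors MYRF and SOX10 takes them through a short-lived committed stage into myelin formation. They are unusual among glia in that neurons make true synapses on them, and they carry AMPA-type glutamate receptors, GABA receptors and voltage-gated sodium, potassium and calcium channels.

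The gate did not hold 1 kind of nucleus. LHFPL3, a membrane gene typical of precursors, and PTPRZ1, a receptor-type phosphatase bearing chondroitin sulfate, were not used by the gate and divided its nuclei into 2 groups. With a cut at 20 UMIs of both genes per 10000, chosen after the values had been seen, 1559 nuclei lay at or above the cut (378, 321 and 293 in the 18-month libraries, 291 and 276 in the 17-month libraries). The other 699 nuclei lay below it, and 112 nuclei were near it, between 10 and 40 UMIs per 10000. Nuclei above the cut held a mean of 27.9 UMIs of LHFPL3 and 12.4 of PTPRZ1, and nuclei below it 1.65 and 1.32.

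The genes of the gate are given as a description, since the rule chose them. Nuclei above the cut held a mean of 5.02 UMIs of PDGFRA, 5.83 of VCAN and 0.190 of CSPG4, and 96.7% of them had a VCAN UMI. Nuclei below the cut had passed the gate almost by PDGFRA alone: they held 6.70 UMIs of PDGFRA, 0.522 of VCAN and 0.00429 of CSPG4, and 82.0% of them had no UMI of VCAN or CSPG4. They went against the label. The synaptic vesicle gene SYT1 gave a mean of 5.45 UMIs above the cut and 35.4 below it, and the neuronal splicing factor RBFOX3 0.298 above and 9.62 below. Their median total was 3816 UMIs above the cut and 9420 below it, near the upper limit of the gate. The summed level of 16 neuron marker genes in counts per 1000000 summed UMIs (CPM) ranged over libraries from 2108 to 3144 above the cut, from 6467 to 8278 below it and from 6650 to 9451 in excitatory neurons.

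**Figure D1:**
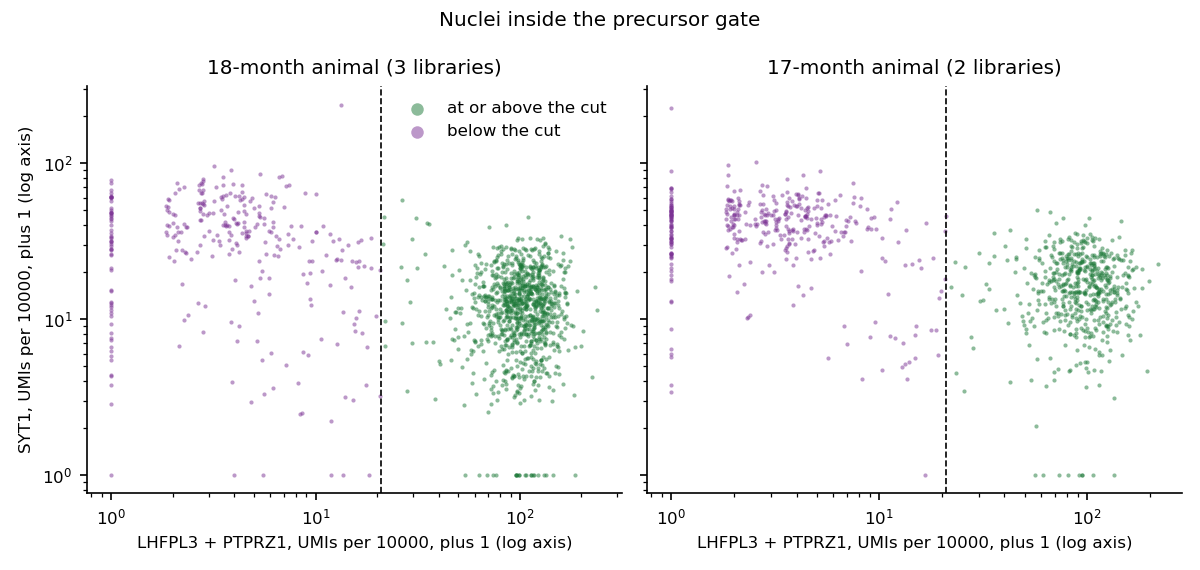
UMIs of LHFPL3 and PTPRZ1 (horizontal) and of SYT1 (vertical) per 10000 UMIs, plus 1, on log axes, for each of the 2258 gated nuclei, with the 18-month animal on the left and the 17-month animal on the right. The dashed line is the cut; the 1559 nuclei to its right are mostly lower in SYT1 than the 699 to its left in both animals.

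Other genes also set the nuclei below the cut apart. The ATPase-like gene NWD2 averaged 691 ± 215 CPM below the cut and 62.0 ± 26.4 CPM above it (SD, n = 5 libraries), and the relaxin receptor RXFP1 329 ± 53.0 CPM below and 35.7 ± 14.1 CPM above. These nuclei are called by the cut and given no cell type. They made up 26.6%, 25.3% and 18.4% of the gated nuclei in 18-month and 45.0% and 35.1% in 17-month libraries, so their share did not overlap between the animals. They held 49.2% of all gated UMIs.

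A higher marker threshold moved the balance. Of nuclei that met every other limit, 14.1% of those with 3 marker UMIs and 27.0% of those with 4, just outside the gate, lay above the cut, as did 40.5% of those with 5 and 54.4% of those with 6, just inside it. Requiring all excluded sums to be 0 still left 258 of 864 nuclei below the cut, and requiring 8 marker UMIs left 240 of 1345. Levels are therefore given for the 1559 nuclei above the cut, called the precursor nuclei here. Tests with their p come from all 2258 gated nuclei, as the rule defines them. Fold changes of the precursor nuclei stand beside them without a p, since the cut was chosen on these data. Counts of genes that pass a threshold on the adjusted p in the precursor nuclei are a description for the same reason.

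The libraries held 47512670 to 70896967 UMIs over 6659 to 9540 barcodes, and any pair of libraries shared 11 to 39 barcodes. Other classes were gated in the same way: 116 committed precursors, 9982 oligodendrocytes, 682 astrocytes, 1224 microglia, 446 excitatory and 544 inhibitory neurons. The 18-month libraries 1 and 3 stood apart in their excitatory neurons, with medians of 2900 and 4015 UMIs against 6801 to 8448 in the other 3 libraries. The sum of 13 oligodendrocyte markers in these neurons was 6402 and 5150 CPM, against 1078 to 2087 CPM in the other 3, and its part in the levels of excitatory neurons was not tested. Without these 2 sums, 1389 genes in place of 1242 were called against excitatory neurons. Committed precursors gave 3 sums of at least 20 nuclei (18-month libraries 2 and 3, 17-month library 2). Of the precursor nuclei, 28 held at least 5 UMIs of AQP4, GJA1 and ADGRV1 (astrocytes), 73 at least 15 of the oligodendrocyte gate genes and 16 over 2 of RBFOX3. Their part in the results was not tested, except where the variation among nuclei is given without them.

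Against the 6 other classes together, the precursors were set apart by a limited number of genes. A gene was called where edgeR's quasi-likelihood test with Benjamini-Hochberg adjustment gave p under 0.05 and the log2 fold change was at least 1. Gated nuclei were higher than every other class in 28 genes (0.25% of those tested), and the precursor nuclei in 125 (1.11%). The 5 described next are among the 10 whose smallest log2 fold change over the 6 classes was largest.

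MYT1, a zinc finger factor of the oligodendrocyte lineage, had 332, 325 and 349 CPM in the precursor nuclei of the 18-month animal and 283 and 316 CPM in those of the 17-month animal, against 2.38 ± 0.166 CPM in oligodendrocytes (SD, n = 5 libraries). Every precursor library lay far above the oligodendrocyte libraries. The log2 fold change over oligodendrocytes was 6.13 ± 0.24 in gated nuclei (SE, adjusted p = 5.4e-20) and 7.04 ± 0.22 in the precursor nuclei. FERMT1, a kindlin that activates integrins, had 79.3, 67.6 and 81.9 CPM in 18-month and 77.0 and 83.6 CPM in 17-month precursor libraries, against 0.693 ± 0.519 CPM in oligodendrocytes. The 2 animals overlapped, and the log2 fold change over oligodendrocytes was 5.76 ± 0.29 in gated nuclei (adjusted p = 7.6e-19) and 6.66 ± 0.26 in precursor nuclei. LGR5, the R-spondin receptor known from intestinal stem cells, had 114, 101 and 115 CPM in 18-month and 124 and 124 CPM in 17-month precursor libraries, against 1.82 ± 0.743 CPM in oligodendrocytes, 0.815 ± 1.18 CPM in excitatory and 2.66 ± 1.48 CPM in inhibitory neurons. Its log2 fold change over oligodendrocytes was 5.01 ± 0.21 in gated nuclei (adjusted p = 8.2e-21) and 5.95 ± 0.20 in precursor nuclei.

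C1QL1, a secreted C1q-like protein that binds the adhesion receptor BAI3, had 159, 148 and 152 CPM in 18-month and 119 and 92.0 CPM in 17-month precursor libraries, against 5.19 ± 1.48 CPM in oligodendrocytes (log2 fold change 3.75 ± 0.21 gated, adjusted p = 3.3e-17, and 4.70 ± 0.16 in precursor nuclei). SPRY4, a feedback inhibitor of receptor tyrosine kinase signalling, had 147, 127 and 159 CPM in 18-month and 91.1 and 91.0 CPM in 17-month precursor libraries, against 3.46 ± 1.27 CPM in oligodendrocytes (log2 fold change 4.32 ± 0.22 gated, adjusted p = 1.6e-18, and 5.18 ± 0.18 in precursor nuclei). For both genes the 3 libraries of the 18-month animal lay above both of the 17-month animal.

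The next comparisons follow the lineage, from precursor to committed precursor to oligodendrocyte. Against oligodendrocytes, 3283 of 11212 tested genes were called, a share of 29.3%, with 2196 higher (19.6%) and 1087 lower (9.69%) in gated nuclei. Of 29 measured genes of precursor identity outside the gate, 27 were tested, 22 were higher and 0 lower, with a median log2 fold change of 2.74, where the median of all genes was -0.02. Against committed precursors, 740 genes were called, a share of 6.6%, with 338 higher (3.01%) and 402 lower (3.59%). Here 6 of the same 27 identity genes were higher and 4 lower in gated nuclei. In precursor nuclei 9 of 25 tested were higher and 0 lower, against 4.63% and 4.88% of all tested genes. The cut had chosen these nuclei by the identity genes LHFPL3 and PTPRZ1, so a rise of other identity genes was partly built in.

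Several identity genes were not called between precursor nuclei and committed precursors. SOX6, a factor that holds back differentiation, had 2006, 2093 and 2113 CPM in 18-month and 1723 and 1744 CPM in 17-month precursor libraries, against 1966 ± 1059.6 CPM in committed precursors (SD, n = 3) and 60.2 ± 14.3 CPM in oligodendrocytes (n = 5). Its fold change over oligodendrocytes was 4.04 ± 0.26 on the log2 scale in gated nuclei (adjusted p = 3.0e-14) and 5.01 ± 0.25 in precursor nuclei. With every nucleus thinned to 1500 UMIs, 86.3% to 92.5% of precursor nuclei had a SOX6 UMI over libraries, against 32.1% to 69.2% of committed precursors and 5.94% to 9.24% of oligodendrocytes (unthinned medians 98.4%, 57.9% and 13.7%). The CPM of precursor nuclei and committed precursors overlapped, so no order of these 2 classes is read from the shares. TNR, the extracellular matrix glycoprotein tenascin-R, averaged 3231 ± 399.7 CPM in precursor nuclei (n = 5 libraries), 2258 ± 426 CPM in committed precursors (n = 3) and 64 ± 34 CPM in oligodendrocytes (n = 5). SOX10, the factor kept throughout the lineage, averaged 154 ± 12.7, 191 ± 26.3 and 176 ± 18.9 CPM in the same 3 classes.

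**Figure D2:**
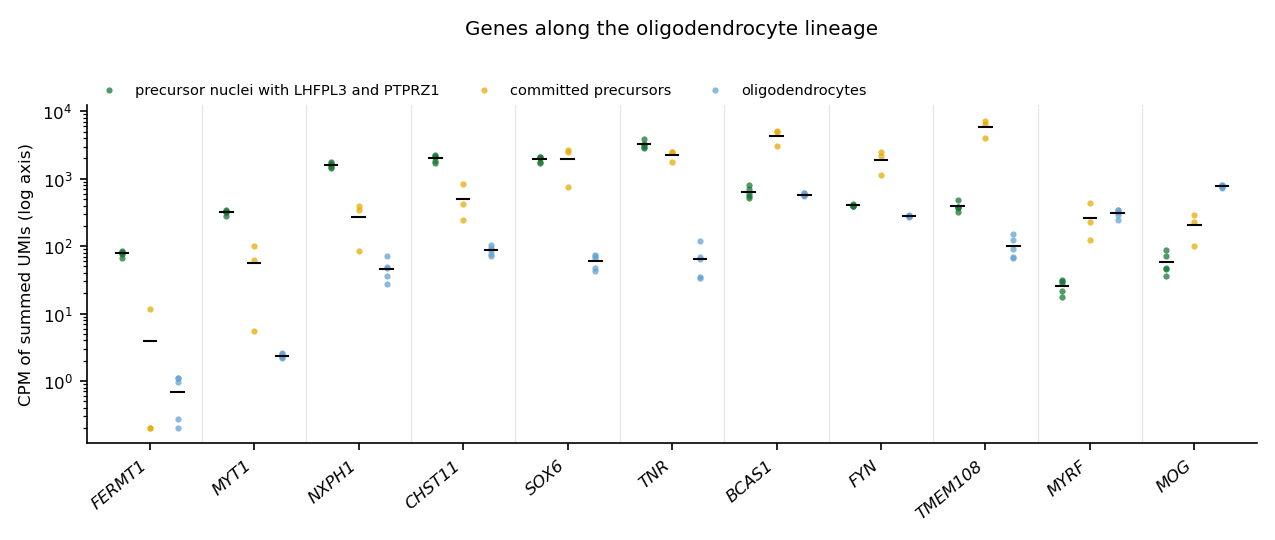
CPM of summed UMIs (log axis) of 11 lineage genes, with 1 point per library and a bar at the mean, in precursor nuclei above the cut (5 libraries), committed precursors (3) and oligodendrocytes (5); values under 0.2 CPM are drawn at 0.2. FERMT1, MYT1, NXPH1 and CHST11 are highest in precursors, BCAS1, FYN and TMEM108 in committed precursors, and MYRF and MOG are lowest in precursors.

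Genes of differentiation and myelin were lower than in committed precursors. Of 24 tested members of that list, 18 were lower and 1 higher in gated nuclei, with a median log2 fold change of -2.16, where the median of all genes was 0.11. BCAS1, a marker of oligodendrocytes that are starting to myelinate, had 558, 514 and 597 CPM in 18-month and 697 and 799.8 CPM in 17-month precursor libraries, against 5023, 4935 and 3031 CPM in the 3 committed precursor sums. The groups did not overlap, and the log2 fold change was -3.75 ± 0.34 in gated nuclei (adjusted p = 6.9e-09) and -2.79 ± 0.36 in precursor nuclei. BCAS1 in oligodendrocytes, at 581 ± 27.5 CPM, was back at the level of precursor nuclei. FYN, a kinase that starts myelination, averaged 401 ± 12.8 CPM in precursor nuclei against 1925 ± 689 CPM in committed precursors (log2 fold change -2.74 ± 0.16 gated, adjusted p = 1.2e-15, and -2.24 ± 0.16 in precursor nuclei). MYRF, the master factor of myelin genes, averaged 25.8 ± 5.94 CPM in precursor nuclei against 262 ± 159 CPM in committed precursors (log2 fold change -3.74 ± 0.38 gated, adjusted p = 7.1e-08, and -3.26 ± 0.39 in precursor nuclei). The summed level of 13 oligodendrocyte markers was 723 to 1583 CPM in precursor libraries, 2955 to 10187 CPM in committed precursors and 12639 to 15094 CPM in oligodendrocytes, and its part in these differences was not tested.

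Some genes stood higher in committed precursors than in either neighbouring stage. TMEM108, a membrane protein, had 316, 372 and 384 CPM in 18-month and 386 and 488 CPM in 17-month precursor libraries, against 5899.5 ± 1686 CPM in committed precursors and 101 ± 36.8 CPM in oligodendrocytes (log2 fold change to committed precursors -4.07 ± 0.23 gated, adjusted p = 5.1e-16, and -3.88 ± 0.24 in precursor nuclei). OLFML2A, a secreted olfactomedin-like protein, averaged 3.98 ± 3.84 CPM in precursor nuclei, 220.1 ± 49.3 CPM in committed precursors and 2.44 ± 0.603 CPM in oligodendrocytes. In the other direction, FERMT1 averaged 77.9 ± 6.27 CPM in precursor nuclei and 3.92 ± 6.79 CPM in committed precursors (log2 fold change 3.56 ± 0.78 gated, adjusted p = 1.7e-03, and 4.39 ± 0.66 in precursor nuclei). MYT1 averaged 321 ± 24.6 CPM in precursor nuclei and 55.6 ± 47.5 CPM in committed precursors (1.77 ± 0.37 gated, adjusted p = 1.3e-03, and 2.60 ± 0.33 in precursor nuclei). CHST11, which sulfates chondroitin, averaged 2002 ± 225 CPM in precursor nuclei and 501 ± 303 CPM in committed precursors (1.30 ± 0.29 gated, adjusted p = 2.3e-03, and 2.07 ± 0.27 in precursor nuclei), a call lost without 17-month library 2. This comparison rests on sums of 25, 26 and 28 committed precursors, and leaving out 18-month library 3 took the number of called genes to 422.

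The next question was which genes of neurons the precursors share. A gene counted as shared where it was called higher than in oligodendrocytes and than in microglia and its log2 fold change was no lower than -1 against excitatory or against inhibitory neurons. Oligodendrocytes and microglia stood for free neuronal RNA in the droplets. Against microglia 4041 genes were called (36.0%), against excitatory neurons 1242 (11.1%) and against inhibitory neurons 1566 (14.0%). Shared genes numbered 1466 of 11212 in gated nuclei, a background of 13.1%, and 1030 of 11229 in precursor nuclei, a background of 9.17%. The 862 genes in both made 58.8% of the gated and 83.7% of the precursor list. In 715 of the 1030, at least 1 neuron class was also at least 2-fold above both oligodendrocytes and microglia, and the others were not neuronal in that sense.

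The neuron markers themselves give the level of background. Their sum in precursor nuclei, 2108 to 3144 CPM over libraries, overlapped those of oligodendrocytes (1951 to 3085 CPM) and microglia (2280 to 3282 CPM). Of these 16 genes, 0 were shared in precursor nuclei and 6 in gated nuclei. The rule sets no limit on astrocytes and no lowest level in neurons: of 8 tested astrocyte markers 6 met it in precursor nuclei, GFAP and ALDH1L1 among them, and in 2 of the 6 a neuron class was also 2-fold above oligodendrocytes and microglia. Counts for families are therefore given for precursor nuclei first, and those of all gated nuclei, which hold the nuclei below the cut, after them.

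Glutamate receptors carry the input that neurons make on precursors. Of 26 measured members, 23 were tested. In precursor nuclei 13 were shared, or 56.5% against a background of 9.17%, and in gated nuclei 17, against 13.1%. Among them were GRIA3 and GRIA4 of the AMPA type, GRIK1, GRIK2, GRIK3, GRIK4 and GRIK5 of the kainate type, GRIN2B and GRIN2D of the NMDA type and the metabotropic GRM5, GRM7 and GRM8. All of the 13 but GRIK4 were also at least 2-fold above oligodendrocytes and microglia in a neuron class.

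GRIA4 had 492, 636 and 717 CPM in 18-month and 638 and 799 CPM in 17-month precursor libraries. Other classes averaged 138 ± 54.3 CPM (oligodendrocytes), 148 ± 69.2 CPM (microglia), 441 ± 88.6 CPM (excitatory neurons) and 1731 ± 125 CPM (inhibitory neurons; SD, n = 5 libraries each). The precursors thus stood over oligodendrocytes (log2 fold change 2.23 ± 0.22 gated, adjusted p = 4.0e-11, and 2.32 ± 0.23 in precursor nuclei) and under inhibitory neurons (-1.47 ± 0.21 gated, adjusted p = 6.2e-07, and -1.39 ± 0.22 in precursor nuclei), while over excitatory neurons 0.64 ± 0.22 in gated and 0.71 ± 0.23 in precursor nuclei were below the fold set for a call. GRIA3 averaged 646 ± 41.6 CPM in precursor nuclei, 498 ± 148 CPM in excitatory neurons, 592 ± 51.9 CPM in inhibitory neurons and 115 ± 41.4 CPM in oligodendrocytes. GRIK1 averaged 631 ± 67.5 CPM in precursor nuclei, 198 ± 97.0 CPM in excitatory neurons, 2484 ± 257 CPM in inhibitory neurons and 67.0 ± 21.0 CPM in oligodendrocytes. Gated nuclei were called below inhibitory neurons and above excitatory neurons and oligodendrocytes for GRIK1.

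GRIN2D, an NMDA receptor subunit of interneurons, had 64.0, 64.6 and 55.1 CPM in 18-month and 51.6 and 46.4 CPM in 17-month precursor libraries. It averaged 64.9 ± 18.6 CPM in inhibitory neurons, 10.6 ± 3.22 CPM in excitatory neurons and 5.19 ± 1.32 CPM in oligodendrocytes. As with GRIK1, precursors and inhibitory neurons were higher than excitatory neurons, though only for GRIK1 did precursors lie far below inhibitory neurons. GRM5, the group I metabotropic receptor, averaged 1671 ± 116 CPM in precursor nuclei, 1638 ± 80.1 CPM in inhibitory neurons, 962 ± 149.9 CPM in excitatory neurons and 265 ± 105 CPM in oligodendrocytes. GRM7, a presynaptic receptor, had 476 ± 48.4 CPM in precursor nuclei, 825 ± 294 CPM in excitatory neurons, 541 ± 35.4 CPM in inhibitory neurons and 227 ± 51.0 CPM in oligodendrocytes. GRM7 was also high below the cut, at 889 ± 31.1 CPM, and its log2 fold change over oligodendrocytes was 1.51 ± 0.27 in gated nuclei (adjusted p = 1.4e-05) and 1.10 ± 0.27 in precursor nuclei.

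Of proteins that attend these receptors, 8 of 12 tested were shared in precursor nuclei (66.7%, background 9.17%) and 10 in gated nuclei (background 13.1%). The 8 were CACNG2, CACNG4, CACNG8, GSG1L, NETO1, NETO2, SHISA6 and SHISA9. CACNG4, the stargazin-like subunit gamma-4 of AMPA receptors, had 322, 331 and 339 CPM in 18-month and 269 and 287 CPM in 17-month precursor libraries. It averaged 61.7 ± 6.45 CPM in inhibitory neurons, 11.3 ± 6.22 CPM in excitatory neurons, 131 ± 60.6 CPM in astrocytes and 2.33 ± 1.22 CPM in oligodendrocytes (log2 fold change over oligodendrocytes 6.24 ± 0.27 gated, adjusted p = 8.2e-18, and 7.09 ± 0.24 in precursor nuclei). Both neuron classes were called lower than the precursors. GSG1L, another AMPA receptor partner, averaged 186 ± 25.9 CPM in precursor nuclei, 249 ± 127 CPM in excitatory neurons, 26.3 ± 10.1 CPM in inhibitory neurons and 27.1 ± 11.3 CPM in oligodendrocytes (log2 fold change 3.08 ± 0.17 gated, adjusted p = 3.3e-16, and 2.86 ± 0.18 in precursor nuclei).

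GABA and glycine receptors were shared at about the background rate in precursor nuclei. Of 16 tested members, 2 were shared in precursor nuclei, or 12.5%, near the background of 9.17%, and 9 in gated nuclei (background 13.1%). GABBR1, a subunit of GABA-B receptors, was among the 2 and averaged 168 ± 4.39 CPM in precursor nuclei and 780.2 ± 129 CPM in astrocytes.

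**Figure D3:**
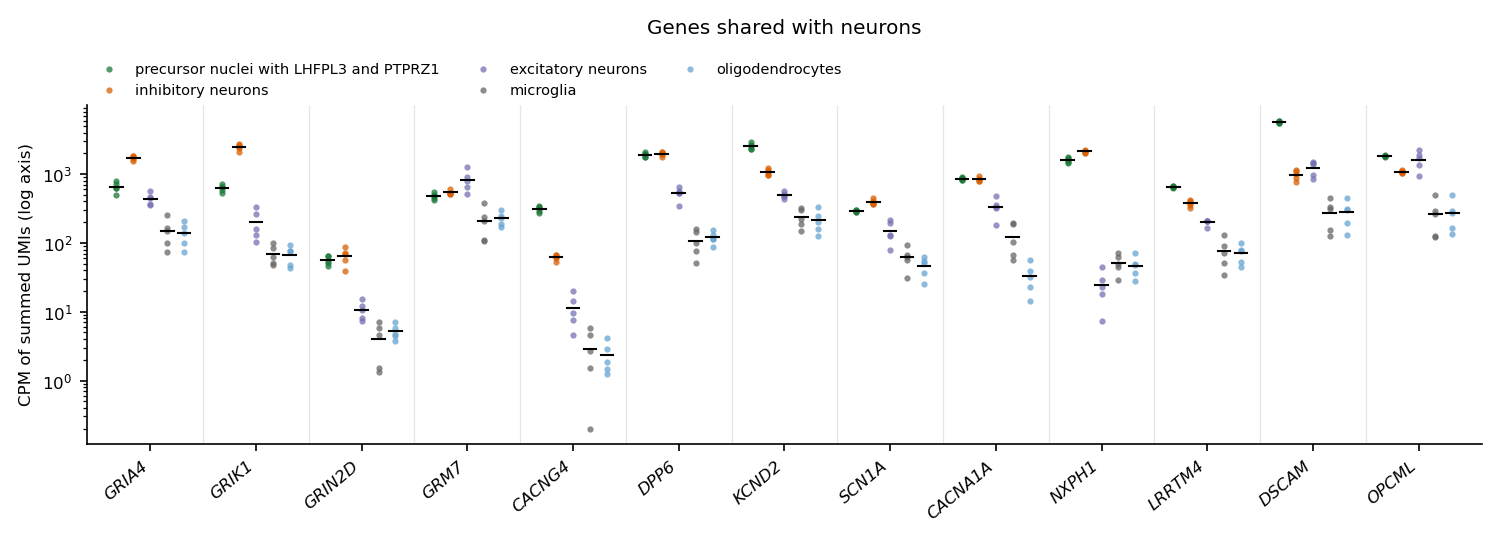
CPM of summed UMIs (log axis) of 13 genes shared with neurons, with 1 point per library (5 in each class) and a bar at the mean, in precursor nuclei above the cut, inhibitory neurons, excitatory neurons, microglia and oligodendrocytes; values under 0.2 CPM are drawn at 0.2. The mean of the precursors lies above those of microglia and oligodendrocytes in all 13 genes, and NXPH1 and GRIK1 are high in precursors and inhibitory neurons and lower in excitatory neurons.

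Among voltage-gated channels of precursor nuclei, 17 of 46 tested potassium and HCN channel genes were shared (37.0%, background 9.17%). Of 28 tested sodium and calcium channel genes, 14 were shared in them (50.0%). In gated nuclei 29 and 20 were shared, where the background was 13.1%. DPP6, an auxiliary subunit of A-type potassium channels, had 1781, 1789 and 1964 CPM in 18-month and 1961 and 2090.0 CPM in 17-month precursor libraries, against 1970.5 ± 137 CPM in inhibitory neurons, 523 ± 108 CPM in excitatory neurons and 120.2 ± 24.8 CPM in oligodendrocytes. KCND2, the A-type channel Kv4.2 that DPP6 binds, averaged 2538 ± 255 CPM in precursor nuclei, 1076 ± 104 CPM in inhibitory neurons, 496 ± 49.1 CPM in excitatory neurons and 212 ± 79.7 CPM in oligodendrocytes (log2 fold change over oligodendrocytes 3.04 ± 0.25 gated, adjusted p = 1.5e-12, and 3.64 ± 0.23 in precursor nuclei). In precursor nuclei KCND2 was also called over both neuron classes, with log2 fold changes of 2.48 ± 0.23 and 1.27 ± 0.21 over excitatory and inhibitory neurons. The inward rectifier KCNJ16 met the rule with hardly any neuronal level: it averaged 44.7 ± 11.5 CPM in precursor nuclei and 3.43 ± 6.50 CPM in inhibitory neurons, had no UMI in excitatory neurons of any library and averaged 0.488 ± 0.442 CPM in oligodendrocytes.

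SCN1A, the sodium channel of fast-spiking neurons, had 284, 297 and 300.2 CPM in 18-month and 288 and 281 CPM in 17-month precursor libraries. It averaged 395 ± 32.7 CPM in inhibitory neurons, 149 ± 55.2 CPM in excitatory neurons and 45.9 ± 14.5 CPM in oligodendrocytes (log2 fold change over oligodendrocytes 2.41 ± 0.17 gated, adjusted p = 7.7e-15, and 2.70 ± 0.16 in precursor nuclei). Precursors lay between the neuron classes. SCN9A, another sodium channel, averaged 104 ± 12 CPM in precursor nuclei and 21.1 ± 8.70 CPM in oligodendrocytes. CACNA1A, the P/Q-type calcium channel of nerve terminals, averaged 854 ± 38.4 CPM in precursor nuclei, 842 ± 53.8 CPM in inhibitory neurons, 338 ± 106 CPM in excitatory neurons and 32.7 ± 16.0 CPM in oligodendrocytes (4.21 ± 0.28 gated, adjusted p = 1.5e-13, and 4.83 ± 0.25 in precursor nuclei). Of the other channels tested, 6 of 24 were shared (25.0%, background 9.17%). Among them were the acid-sensing ASIC2 and ASIC4 and the cation channels TRPC5, TRPC6 and TRPM3.

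Adhesion families gave 16 of 42 tested synaptic adhesion genes (38.1%), 13 of 35 immunoglobulin adhesion genes (37.1%) and 8 of 24 cadherins (33.3%). The background was 9.17%. In gated nuclei they gave 21, 18 and 12, against a background of 13.1%. NXPH1, a secreted ligand of neurexins, had 1785, 1625 and 1713 CPM in 18-month and 1455 and 1492 CPM in 17-month precursor libraries. It averaged 2133 ± 97.7 CPM in inhibitory neurons, 24.4 ± 13.8 CPM in excitatory neurons and 46.6 ± 16.9 CPM in oligodendrocytes (log2 fold change 4.21 ± 0.31 gated, adjusted p = 8.1e-13, and 5.15 ± 0.26 in precursor nuclei). NXPH1 was thus high in inhibitory and low in excitatory neurons. LRRTM4, a postsynaptic partner of neurexins, averaged 656 ± 18.7 CPM in precursor nuclei, 377 ± 38.2 CPM in inhibitory neurons, 200.4 ± 19.4 CPM in excitatory neurons and 70.6 ± 22.4 CPM in oligodendrocytes.

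DSCAM, an immunoglobulin protein of self-avoidance, had 5475, 5485 and 5931 CPM in 18-month and 5642 and 5972 CPM in 17-month precursor libraries. It averaged 1229 ± 303 CPM in excitatory neurons, 981 ± 169 CPM in inhibitory neurons and 277 ± 119.6 CPM in oligodendrocytes (log2 fold change 3.79 ± 0.31 gated, adjusted p = 2.9e-12, and 4.47 ± 0.29 in precursor nuclei), and committed precursors kept 3804 ± 1427 CPM. OPCML, a GPI-anchored cell adhesion protein, lay within the spread of excitatory neurons, at 1846 ± 45.8 CPM in precursor nuclei, 1629 ± 483 CPM in excitatory neurons and 273 ± 143 CPM in oligodendrocytes. PCDH15, a protocadherin of hair-cell tip links and of precursors, averaged 3182 ± 299 CPM in precursor nuclei, 251 ± 34 CPM in inhibitory neurons, 74.8 ± 11.5 CPM in excitatory neurons and 36.8 ± 6.42 CPM in oligodendrocytes (5.46 ± 0.27 gated, adjusted p = 4.7e-17, and 6.42 ± 0.26 in precursor nuclei). The cadherin CDH10 averaged 486 ± 23.3 CPM in precursor nuclei, with a log2 fold change over oligodendrocytes of 2.12 ± 0.20 in gated nuclei (adjusted p = 8.1e-11) and 2.36 ± 0.20 in precursor nuclei.

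Axon guidance genes and receptors for transmitters and peptides were shared in smaller numbers. Of 48 tested guidance genes 10 were shared in precursor nuclei (20.8%, background 9.17%). Among them were EPHA5, NTN1, ROBO1 and SLIT2, and in gated nuclei 21 were shared (background 13.1%). Of 33 tested G protein-coupled receptors 4 were shared (12.1%, near the background of 9.17%): ADCYAP1R1, ADRA1A, EDNRB and VIPR2. In gated nuclei 14 were shared (background 13.1%). EDNRB, the endothelin receptor B, met the rule without a neuronal level: it averaged 34.3 CPM in precursor nuclei and 2.28 and 2.09 CPM in excitatory and inhibitory neurons, under oligodendrocytes (4.56 CPM) and microglia (6.62 CPM), and 298 CPM in astrocytes. ADRA1A, the alpha-1A adrenergic receptor, had 75.9, 78.1 and 69.3 CPM in 18-month and 121 and 117 CPM in 17-month precursor libraries, against 155 ± 25.6 CPM in inhibitory neurons, 28.1 ± 4.36 CPM in excitatory neurons, 179 ± 55.4 CPM in astrocytes and 7.24 ± 2.74 CPM in oligodendrocytes. Its log2 fold change over oligodendrocytes was 3.00 ± 0.16 in gated nuclei (adjusted p = 5.1e-18) and 3.67 ± 0.16 in precursor nuclei. Several of these genes were also astrocyte genes. The sum of 12 astrocyte markers was 1091 to 1695 CPM in precursor libraries, 258 to 456 CPM in oligodendrocytes, 989 to 1638 CPM in microglia and 24603 to 30064 CPM in astrocytes, and its part in their levels was not tested.

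Receptors for growth factors, which hold precursors in division, and their feedback inhibitors were shared for 15 of 35 tested genes (42.9%, background 9.17%). Proteoglycans, with the enzymes that build chondroitin sulfate, were shared for 16 of 30 (53.3%). In 9 of those 16 a neuron class was also 2-fold above oligodendrocytes and microglia. EGFR, the epidermal growth factor receptor, had 285, 229 and 294 CPM in 18-month and 172 and 239.7 CPM in 17-month precursor libraries, with a log2 fold change over oligodendrocytes of 4.94 ± 0.26 in gated nuclei (adjusted p = 7.7e-16) and 5.80 ± 0.21 in precursor nuclei. XYLT1, which starts each chondroitin sulfate chain, had 3042, 2904 and 3196 CPM in 18-month and 2648 and 3008 CPM in 17-month precursor libraries (log2 fold change over oligodendrocytes 2.74 ± 0.20 gated, adjusted p = 1.2e-14, and 3.57 ± 0.19 in precursor nuclei). The animals overlapped for both genes.

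Variation among nuclei was measured per library as the variance of residuals after the depth of each nucleus was accounted for, where 1 is Poisson counting noise. Among all gated nuclei, 637 of 6663 genes had a median variance over 2, led by KCNIP4, ADGRV1 and PDE10A, and among the precursor nuclei 129 of 5358. Leaving out nuclei with UMIs of astrocytes, oligodendrocytes or neurons (over 2 of AQP4, GJA1 and ADGRV1, at least 15 of the oligodendrocyte gate genes, or over 2 of RBFOX3) kept 1437 nuclei, in which 55 of 5207 genes had a variance over 2. Variable genes were fewer in number among the nuclei kept. Median totals of these were 3448 to 4354 UMIs over libraries. Precursor nuclei with at least 5 UMIs of AQP4, GJA1 and ADGRV1 had medians of 4841 to 6208.5 UMIs. The parts of depth and of UMIs of other types in the counts of variable genes were not tested. Thinned to 1500 UMIs, 2 of 2563 genes kept a variance over 2 in the 1437 nuclei.

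GPC5, a glypican, varied most by the median over libraries, with variances of 4.71, 4.89 and 5.50 in 18-month and 7.14 and 3.76 in 17-month libraries. The highest count of a nucleus was 72 UMIs in 17-month library 1, where the mean was 1.74, and 16 to 24 in the other libraries. The part of that nucleus in the variance of 7.14 was not tested. No GPC5 UMI was found in 37.9%, 42.3% and 45.5% of 18-month and 46.1% and 65.3% of 17-month nuclei, where Poisson noise gives 6.98%, 12.2% and 6.58%, and 19.4% and 39.2%. GPC5 was therefore spread unevenly, in some nuclei and missing from others. It is also an astrocyte gene, at 5585 ± 955 CPM in astrocytes and 589 ± 210 CPM in all precursor nuclei. Its variance is given here for nuclei with at most 2 UMIs of the 3 astrocyte gate genes. The part of astrocyte RNA that remains within this limit was not tested. GRIA4 came next among genes with a symbol, with variances of 3.67, 4.56 and 7.45 in the 18-month and 2.38 and 2.65 in the 17-month libraries. GRIA4 UMIs were missing from 34.3%, 30.1% and 35.6% of 18-month and 23.1% and 16.1% of 17-month nuclei, where Poisson noise gives 16.1%, 9.12% and 5.47%, and 12.2% and 6.51%. All 3 variances of the 18-month libraries lay above both of the 17-month libraries. The same order held for a gene without a symbol, NXPH1 and PDZRN4 among the 15 most variable genes. Median totals of these nuclei were 3684, 3826 and 4354 UMIs in 18-month and 3448 and 3493 UMIs in 17-month libraries. The part of depth was not tested.

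**Figure D4:**
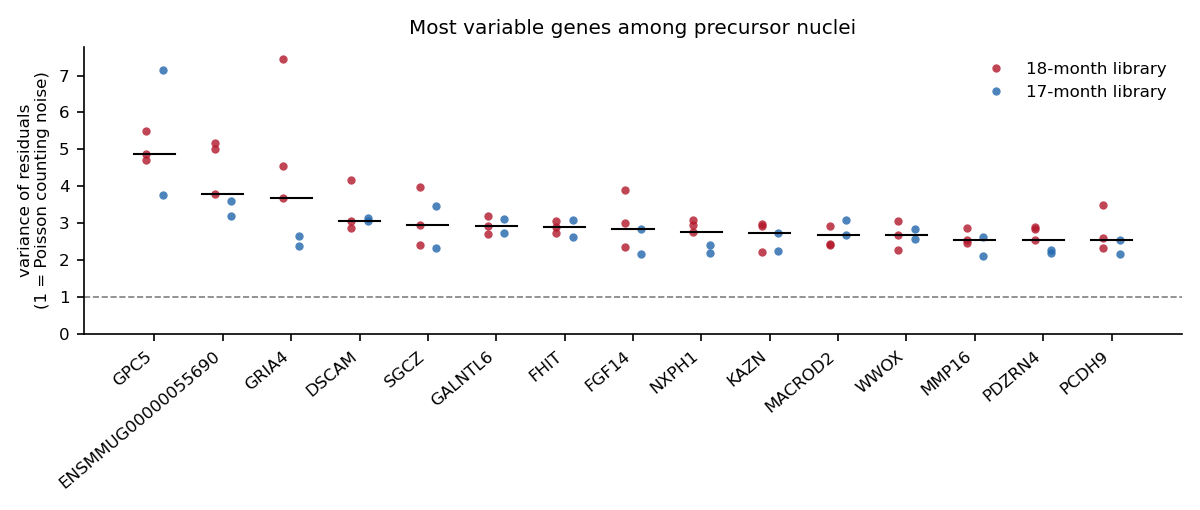
Variance of residuals of the 15 most variable genes over the 1437 precursor nuclei with few UMIs of other cell types, with 1 point per library (3 of the 18-month and 2 of the 17-month animal), a bar at the median and a dashed line at Poisson counting noise. GPC5 and GRIA4 reach the highest values, and every point lies above the line.

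The remaining most variable genes with a symbol were DSCAM, with a median variance of 3.06, then SGCZ, GALNTL6, FHIT, FGF14, NXPH1, KAZN, MACROD2, WWOX, MMP16, PDZRN4 and PCDH9. Over single nuclei, GPC5 and GRIA4 residuals were weakly and inversely related, with Pearson's r between -0.284 and -0.127 in the 5 libraries, and of 5206 genes each was the most negative partner of the other by the library nearest to 0. GRIA4 residuals ran with those of the adhesion gene NRCAM (0.173 to 0.407), the neuregulin receptor ERBB4 (0.165 to 0.300) and the cadherin CDH19 (0.132 to 0.462). Those of GPC5 ran with SLC4A4 (0.107 to 0.197), SYN3 (0.0940 to 0.238) and SASH1 (0.089 to 0.266). The nuclei of a library share its droplets and depth, and in counts this sparse these values are a description only.

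Few precursor nuclei showed signs of division. At least 8 of 36 measured cell cycle genes had a UMI in 7 of 1559 precursor nuclei, or 0.449% (95% exact binomial interval 0.181% to 0.923%, counting error only), 3, 1 and 0 in the 18-month and 1 and 2 in the 17-month libraries. The same held for 0 of 116 committed precursors, which by a limit of 3 counts of the total allows a share of up to 2.59%, for 0 of 9982 oligodendrocytes, which by the same limit allows up to 0.0301%, and for 2 of 1224 microglia. At least 3 UMIs of MKI67 and TOP2A were found in 2 precursor nuclei and 1 of the microglia, both under 3 counts. At least 1 UMI of these genes was found in 0.577% of precursor nuclei, 0.654% of microglia, 0.448% of excitatory neurons and 0.371% of oligodendrocytes. By that measure precursors did not stand out. Nuclei were not thinned here, and medians were 3816 UMIs in precursor nuclei and 2581 to 2762.5 over oligodendrocyte libraries. The part of depth was not tested.

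The 2 animals were compared with libraries as the unit, and age cannot be told apart from any other difference between these animals or their dissections. In gated nuclei 634 of 11943 tested genes were called at an adjusted p under 0.05, a share of 5.31%, with 359 higher (3.01%) and 275 lower (2.3%) in the 18-month animal. In precursor nuclei 338 of 10309 were called, a share of 3.28%, and 1.76% were called higher. The 190 genes called in both made 30.0% of the gated and 56.2% of the precursor list, while the share of nuclei below the cut also differed between the animals, and its part in the gated calls was not tested. By edgeR the count was 0 without 17-month library 1 (1473 genes at an unadjusted p under 0.05; no other tool was run there) and 289 without 17-month library 2, which leave that animal a single library assumed to vary like the others. It was 36 without 18-month library 2. Levels in precursor nuclei are therefore given first.

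KCNH5, a voltage-gated potassium channel of the ether-a-go-go family, was higher in the 18-month animal. It had 254, 267 and 284 CPM in 18-month and 61.0 and 66.9 CPM in 17-month precursor libraries, with a log2 fold change of 2.06 ± 0.19 in gated nuclei (adjusted p = 3.1e-03) and 2.06 ± 0.13 in precursor nuclei. Thinned to 1500 UMIs a nucleus, 31.0%, 30.2% and 28.7% of 18-month and 9.62% and 10.1% of 17-month precursor nuclei had a KCNH5 UMI, while oligodendrocytes stayed between 3.10% and 3.78% in all 5 libraries (unthinned 55.8%, 58.6% and 59.7%, against 17.9% and 19.9%). The shares of precursor nuclei lay apart between the animals, while the share in oligodendrocytes was alike in all libraries. KCNH5 was picked for a large change between these same libraries, so the gap in precursor nuclei is no separate result. In microglia the thinned share was 0%, 3.39% and 0.395% in 18-month and 2.30% and 5.10% in 17-month libraries. Whether the classes differ in this, and the part of free RNA, was not tested.

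Other genes higher in the 18-month animal were EHD4, an endocytic ATPase, with 143, 121 and 147 CPM in 18-month and 57.3 and 42.7 CPM in 17-month precursor libraries (log2 fold change 2.06 ± 0.19 gated, adjusted p = 2.9e-03, and 1.45 ± 0.16 in precursor nuclei). FBLN2, the matrix protein fibulin-2, had 77.9, 74.4 and 96.1 CPM in 18-month and 30.0 and 27.9 CPM in 17-month precursor libraries (2.13 ± 0.27 gated, adjusted p = 9.7e-03, and 1.51 ± 0.20 in precursor nuclei). TFPI, an inhibitor of the tissue factor pathway, had 84.6, 57.9 and 55.1 CPM in 18-month and 23.5 and 18.6 CPM in 17-month precursor libraries (1.99 ± 0.21 gated, adjusted p = 3.5e-03, and 1.65 ± 0.24 in precursor nuclei). None of these 3 genes overlapped between the animals in precursor nuclei. They were picked for large changes between these same libraries, so the lack of overlap is no separate result. The zinc finger gene ZNF257 was also higher, with 116, 98.4 and 129 CPM in 18-month and 20.7 and 29.7 CPM in 17-month precursor libraries, and showed the same direction in oligodendrocytes, at 25.5 to 29.8 and 8.73 to 8.96 CPM. C1QL1 and SPRY4 were higher in the 18-month animal too, with gated log2 fold changes of 1.18 (adjusted p = 9.4e-03) and 1.14 (adjusted p = 0.022) and 0.53 ± 0.13 and 0.66 ± 0.14 in precursor nuclei.

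**Figure D5:**
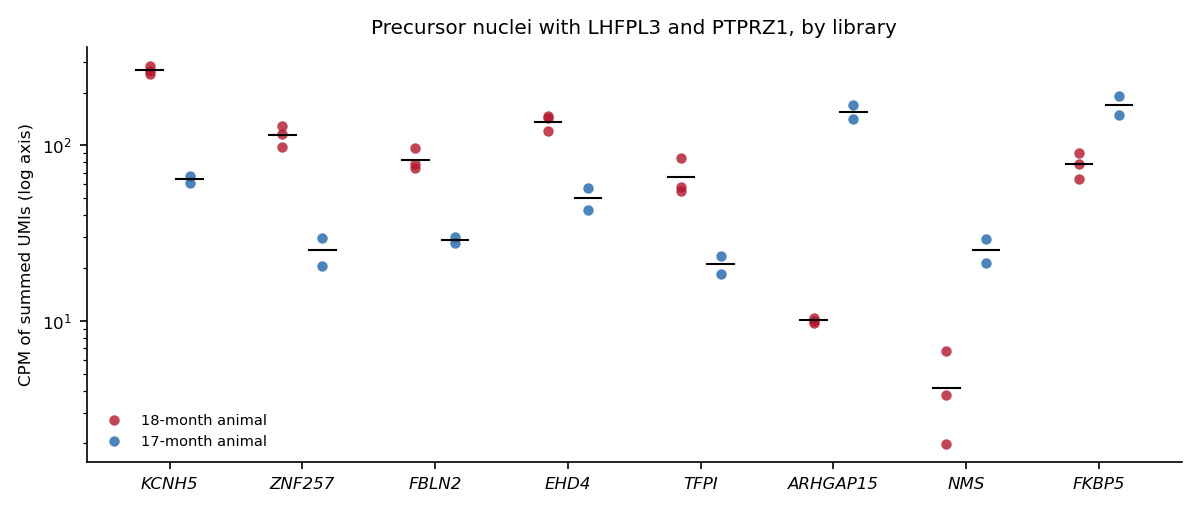
CPM of summed UMIs (log axis) of 8 genes in precursor nuclei above the cut, with 1 point per library and a bar at the mean, for the 18-month animal (left of each pair, 3 libraries) and the 17-month animal (right, 2 libraries). The first 5 genes are higher and the last 3 lower in the 18-month animal. All 8 were picked for their differences between these libraries, so their lack of overlap is no separate result.

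Lower in the 18-month animal was ARHGAP15, a Rac regulator of blood-derived cells, with 9.99, 9.77 and 10.4 CPM in 18-month and 142 and 169 CPM in 17-month precursor libraries. Its log2 fold change was -1.81 ± 0.30 in gated nuclei (adjusted p = 0.022) and -3.94 ± 0.20 in precursor nuclei, and the gated call was lost under 6 alternatives. Oligodendrocytes ran the same way, at 16.5 to 19.0 CPM in 18-month and 84.7 and 103 CPM in 17-month libraries, while microglia had 1411 to 1779 CPM in all 5. The 12 microglia markers summed to 75.1 to 97.9 CPM in 18-month and 104 and 106 CPM in 17-month precursor libraries, and their part was not tested. The neuropeptide gene NMS had 2.00, 3.76 and 6.70 CPM in 18-month and 29.1 and 21.4 CPM in 17-month precursor libraries (-1.80 ± 0.22 gated, adjusted p = 8.0e-03, and -2.60 ± 0.40 in precursor nuclei) and was lower in the 18-month oligodendrocytes as well. FKBP5, a glucocorticoid-induced chaperone, had 90.6, 64.6 and 78.2 CPM in 18-month and 149 and 192 CPM in 17-month precursor libraries (-0.75 ± 0.18 gated, adjusted p = 0.046, and -1.13 ± 0.14 in precursor nuclei), a gated call lost when any library but 18-month library 3 was left out or all excluded sums had to be 0. It was 1 of 10 tested genes of the glucocorticoid response to be called in gated nuclei, where 5.31% of all genes were called. FKBP5 ran the same way in oligodendrocytes and microglia. With nuclei thinned as before, 2.09%, 1.88% and 1.87% of 18-month and 8.68% and 8.76% of 17-month oligodendrocytes had an FKBP5 UMI. In microglia the shares were 45.8%, 45.1% and 45.1% in 18-month and 51.7% and 60.7% in 17-month libraries. Those of precursor nuclei were 11.1%, 7.2% and 10.9% in 18-month and 15.8% and 22.1% in 17-month libraries. Whether the classes differ in this was not tested.

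Some gated calls were not seen above the cut. GPC5 was called in gated nuclei (log2 fold change 1.28 ± 0.20, adjusted p = 0.016), but in precursor nuclei it had 825, 578 and 671 CPM in 18-month and 621 and 252 CPM in 17-month libraries, groups that overlapped (0.67 ± 0.48, not called). The peptidase MME had 6.66, 7.51 and 10.4 CPM in 18-month and 9.39 and 4.64 CPM in 17-month precursor libraries, and 27.0, 72.3 and 57.2 CPM in 18-month and 5.11 and 3.77 CPM in 17-month nuclei below the cut. The melanin-concentrating hormone receptor MCHR2 had 5.73, 22.3 and 12.7 CPM in 18-month and 33.0 and 30.9 CPM in 17-month nuclei below the cut. No test of it is given here, so no difference between the animals is read from these levels. They rest on few UMIs, since the sum of 18-month library 3 below the cut held 472262 UMIs of all genes. Of the identity genes, 11 of 28 tested were higher in the gated 18-month nuclei, with a median log2 fold change of 0.66, against 3.01% of all genes, and 0 were lower. In precursor nuclei 6 of 26 were higher and 2 lower, with a median of 0.07, against 1.76% and 1.52% of all genes.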

How the data were processed

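Nuclear RNA of 5 claustrum libraries was analysed from deposited UMI counts per gene and barcode, which per the file headers the authors made with Cell Ranger 5.0.1. The submitters' processing notes also name CASAVA 1.8, Seurat and the builds Mmul_10 and mm10; the barcode filter is not given in the sources used here. The files gave symbols for 16548 of 21761 genes, and a table of names added 645. Nuclei were gated by raw counts and no doublet caller was run. Counts were summed per library and class (at least 20 nuclei), and levels are CPM of these sums. Sums were tested with edgeR 4.0.16 (quasi-likelihood, TMM, low-count filter, robust) in R 4.3.3, with library as a block between classes, after the 22 genes of all gates were left out, and p-values were adjusted by Benjamini-Hochberg over all tested genes; the fits of the nuclei above the cut also left out LHFPL3 and PTPRZ1. Standard errors were taken from the fold change and its F value. Variation used genes with a mean of at least 0.1 UMIs in every library. The programs were tested on simulated data. Replicate numbers did not pair the libraries: same-numbered libraries of the 2 animals correlated at 0.167 and -0.0847. Alternatives were DESeq2 1.42.0, no low-count filter, other gates and windows, no block, and leaving out each library. Genes were named by list membership and size of change in each comparison, or after their values were seen where the text turns on them. Members, lists and tests were chosen with earlier results of these data known. Some genes are not reported here.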

Additional observations from a re-analysis of the deposited data

How the results depend on the processing

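Called genes stayed within 1.5 times the reported number under DESeq2, the other gates, the other neuron window and no library block, for every class comparison. Exceptions were as follows. Restricted to precursor nuclei above the cut, an alternative added after the data were seen, calls numbered 2900 (1362 higher, 1538 lower) against excitatory and 2423 (1224 higher, 1199 lower) against inhibitory neurons, and 338 between the animals. Leaving out also the excitatory sums of 18-month libraries 1 and 3, which stand apart, gave 3115 calls against excitatory neurons. Leaving out 1 library gave 422 to 760 calls against committed precursors and 0 to 667 between the animals (187 to 410 above the cut, among them 230 and 272 without 17-month libraries 1 and 2 and 191 without 18-month library 1). Without the low-count filter 1506 genes were called between the animals, and with the replicate block, though numbers did not pair the libraries, 792. The mean share of precursors was 8.33% as gated, 5.74% of all barcodes with 500 genes, 3.19% with all excluded sums at 0, 5.02% with 8 marker UMIs and 5.82% above the cut. Genes with a variance over 2 numbered 637 as gated, 92 thinned to 1500 UMIs, 129 above the cut and 55 without nuclei bearing other types' UMIs. Of 663 alternatives for 55 genes with a printed test, 619 kept direction and side of the threshold, 43 lost a call (35 of them with a library left out) and 1 reversed, MME between the animals at -0.19 above the cut without 17-month library 2. The cause of these changes was not tested. Precision is limited by the 3 sums of 25 to 28 committed precursors and by the single animal per age.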

Other observations

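PDGFRA, the receptor that defines the gate, was also found in nuclei that bear neuron genes. The nuclei taken here had 1500 to 50000 UMIs and at most 1 UMI of VCAN, and were not limited in PDGFRA. Those with at least 2 UMIs of SLC17A7 and at most 1 of GAD1 and GAD2 held 511, 323 and 538 CPM of PDGFRA in 18-month and 408 and 434 CPM in 17-month libraries. Nuclei with at least 4 UMIs of GAD1 and GAD2 and at most 1 of SLC17A7 held 330.0, 344 and 400.0 CPM in 18-month and 283 and 284 CPM in 17-month libraries. A sum of 5 PDGFRA UMIs was reached by 80.1%, 54.8% and 86.7% of the SLC17A7 nuclei in the 18-month libraries and by 52.3% and 62.6% in the 17-month libraries, at medians of 13632 to 24889 UMIs. Oligodendrocytes, whose gate allows at most 1 UMI of PDGFRA, VCAN and CSPG4, cannot serve as a level of background for it.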
